A study of Mus musculus with 21 samples.

Results

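The Notch pathway genes described here are 3 receptors (Notch1, Notch2 and Notch3), 3 ligands (Dll1, Dll3 and Jag1) and 4 genes of the Hes and Hey families of target repressors (Hes1, Hes5, Hey1 and Hey2). They were taken by symbol from the count tables of 21 RNA-seq libraries of mouse embryoid bodies and make up 10 of the 48321 rows. Levels are given as CPM, counts scaled to a common library size and corrected for library composition, in 7 groups of 3 samples. Of the 10 genes, 9 passed the filter on low counts and were tested, and Hes5 did not.

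Embryoid bodies are aggregates in which embryonic stem cells begin to differentiate. All groups derive from A2loxCre mouse embryonic stem cells (strain C57BL/6), in which an integrated construct is switched on by doxycycline, and all were collected at day 3. The parental line carries no construct and received doxycycline. The Twist1 monomer line was collected both without doxycycline (uninduced) and with it (induced). The other lines carry dimer constructs, Twist1-Twist1 (homodimer), Twist1-TCF3, Twist1-TCF4 or Twist1-TCF12, and received doxycycline, which was given 16 h before collection. The labels give 1 genotype for each construct and do not say how many clones it covers, so a difference between constructs and a difference between lines cannot be told apart. The labels do not say whether the 3 samples of a group came from separate cultures, so p-values measure only the spread between these samples, which may be technical. In such bulk samples, fewer cells of a type and less RNA per cell cannot be told apart.

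Notch signalling passes between touching cells: a ligand on one cell binds a receptor on its neighbour, the receptor is cut, and its intracellular part enters the nucleus, where with the DNA-binding protein Rbpj it switches on target genes. The Hes and Hey proteins are repressors of the basic helix-loop-helix type, a family that also holds Twist1 and its TCF partners, which bind E-box sequences as dimers. Dll1 and Jag1 activate Notch in neighbouring cells, whereas Dll3 does not and acts as an inhibitor within the cell that makes it. In the embryo the pathway patterns somites, vessels, heart and neural tissue.

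The promoter windows were read for the letters that Rbpj and the basic helix-loop-helix factors bind, to show what stands just before their RefSeq starts. RefSeq (GRCm38.p6) promoter windows were at hand for 8 of the 10 genes, not for Hes1 and Hey1. RefSeq starts can differ from the GENCODE gene bounds given below for each gene. The windows of Dll3 and Notch1 and 1 window of Dll1 lie wholly inside those bounds, and those of Notch2, Jag1 and Hey2 reach into them. Words such as before therefore refer to the RefSeq start alone. In the 250 bases before each start, GTGGGAA, the core bound by Rbpj, was searched on both strands. It was present 2 times before Hes5 and once before Hey2, at base -207 counted from the start, and in no other member's window, against 5.42% of 32851 windows of the same length. The E-boxes CATCTG and CATATG were in none of the members' windows, against 14.4% and 3.46% of all windows. The general E-box CANNTG, which takes in both, was present 2 times before Dll3, 1 time each before Jag1, Hes5 and Hey2, and in both windows of Dll1, but not before Notch1, Notch2 or Notch3. That general motif stands in 66.2% of all windows, and a match is only a description of the letters. The stretches shown are those of the target genes that hold the Rbpj letters and of Dll3, the ligand with the widest range between groups. Capitals mark GTGGGAA or its reverse complement and, for Hey2 and Dll3, CANNTG. Hey2 and Dll3 lie on the minus strand and Hes5 on the plus strand, and all are written 5′ to 3′.
Hey2 chr10:30842934-30843033: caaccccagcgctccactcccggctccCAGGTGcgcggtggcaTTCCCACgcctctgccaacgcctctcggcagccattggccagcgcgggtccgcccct
Hes5 chr4:154960686-154960715: gggcgagcgcgTTCCCACagcccggacatt
Hes5 chr4:154960829-154960858: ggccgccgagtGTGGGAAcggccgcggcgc
Dll3 chr7:28301996-28302025: tagagaggaatgCACCTGtatttccgttct
Dll3 chr7:28301786-28301815: aaatataagactccggcatccagCAGCTGc

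The libraries held 6648842 to 15999693 counts, so that 3 counts, the limit that a count of 0 allows, came to 0.188 to 0.451 CPM. Mean Twist1 CPM was 8.11 (parental), 5.07 (uninduced monomer), 613 (induced monomer), 182 (homodimer) and 39.4 to 55.2 (the 3 lines with a TCF partner). Tcf4 was raised in the TCF4 dimer line (330.4 CPM against 47.5 in the parental line). Tcf3 was not raised in the libraries labelled TCF3 dimer (154.2 against 167.2 CPM). Tcf12 did not set the libraries labelled TCF12 dimer apart (53.2, 117.7 and 108.2 CPM, against a mean of 104.3 in those labelled TCF3 dimer). These 2 groups are therefore called TCF3-labelled and TCF12-labelled libraries. The lines or groups with a TCF partner are these 2 and the TCF4 line, named so by their labels alone. Only in the TCF4 line did the partner's own transcript set the group apart. Sample 1 of the TCF12-labelled group stood apart from the other samples by transcript length: against the rest of its group its genes shifted by a median of 0.96 (log2) where the longest transcript was under 1500 bases and by -0.83 where it was over 6000 bases. The biological coefficient of variation was 0.120 with all 21 samples and 0.0539 without it, so results are given with 21 samples and, where a call differs, with the other 20.

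Across the 7 groups Hey2 and the Delta ligands had the widest range of means, and Notch2 and Notch3 the narrowest. The ratio of the highest to the lowest group mean was 6.85 for Hey2, 4.53 for Dll3, 4.05 for Dll1, 2.54 for Hey1, 2.47 for Hes1 and 2.20 for Notch1, and it was 1.90 for Jag1, 1.65 for Notch3 and 1.53 for Notch2. In edgeR's quasi-likelihood test of any difference among the 7 groups, 8 of the 9 tested members passed an adjusted p of 0.05, the threshold used for every call here, beside 50.7% of all 14311 tested genes. Notch2 was the exception (adjusted p = 0.138), and it passed when sample 1 of the TCF12-labelled group was left out (adjusted p = 7.03e-06, beside 73.4% of genes).

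**Figure D1:**
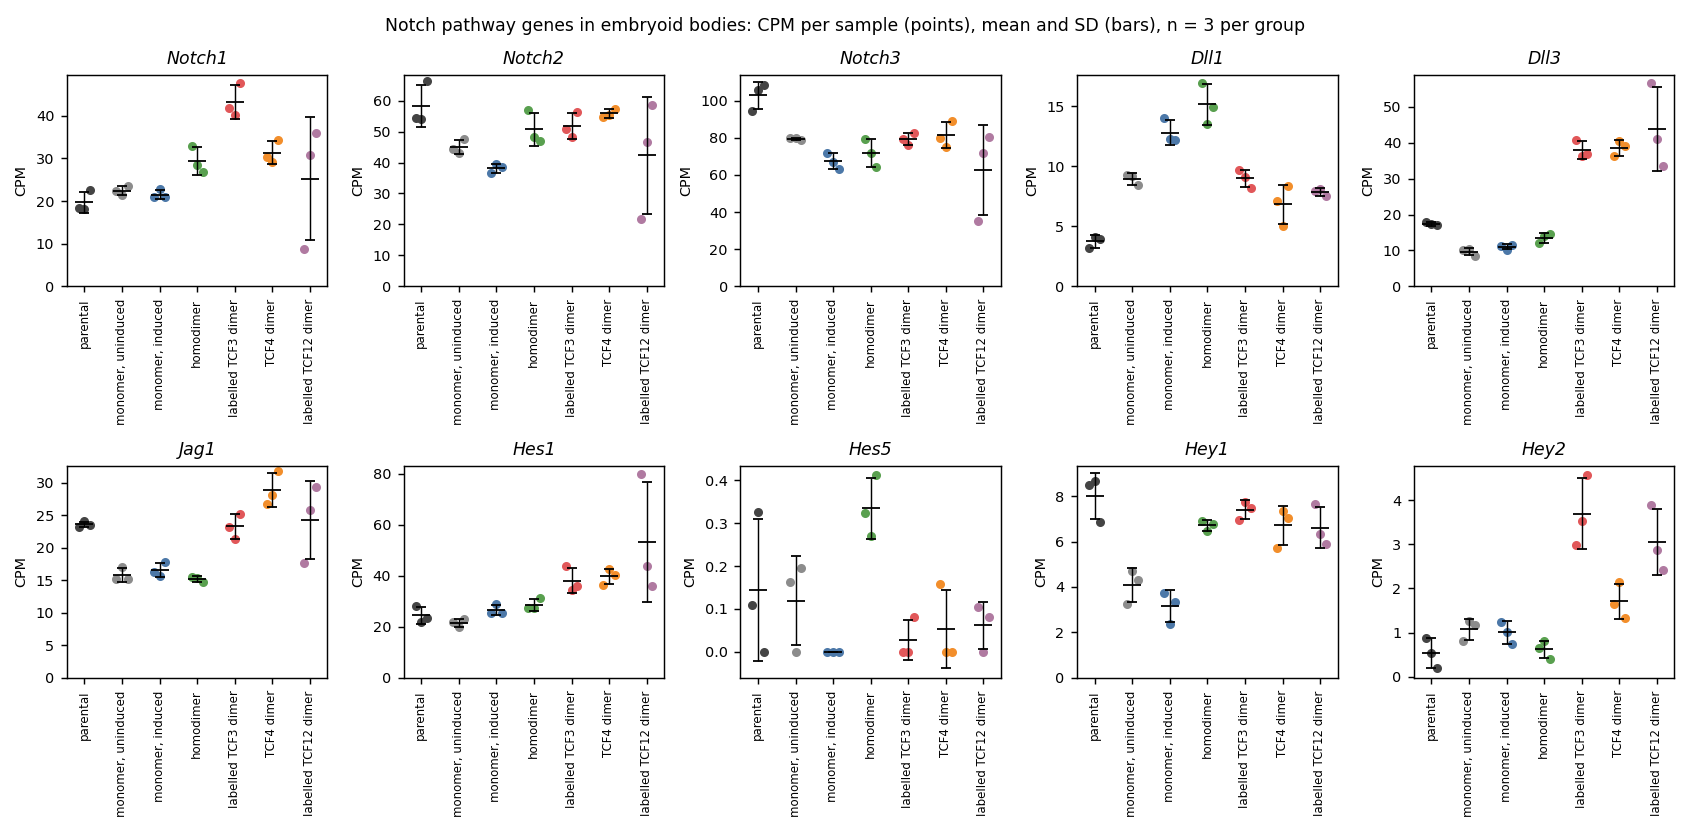
CPM of the 10 genes in each of the 21 samples (points), with the mean and SD of each group (bars, n = 3); each panel has its own linear axis. Dll3, Hes1 and Hey2 were highest in the 3 lines with a TCF partner, Dll1 was highest in the homodimer line, and the widest spread among the TCF12-labelled libraries comes from their sample 1.

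Dll1, the activating Delta ligand (chr17:15367354-15376872, minus strand, GRCm38), was lowest in the parental line and highest in the homodimer line. The parental samples held 3.16, 4.12 and 3.94 CPM and the homodimer samples 16.9, 13.6 and 14.9 CPM. The induced monomer line gave 14.0, 12.3 and 12.1 CPM, and the uninduced line 9.27, 9.20 and 8.40 CPM. No sample of any construct line overlapped the parental samples, and that includes the monomer line without doxycycline. The lines with a TCF partner lay between, at 8.99 ± 0.73 CPM (SD, n = 3) in the TCF3-labelled libraries, 6.82 ± 1.66 in the TCF4 line and 7.87 ± 0.32 in the TCF12-labelled ones. Against the parental line Dll1 rose 4.03-fold in the homodimer line (log2 fold change 2.01 ± 0.16 SE, adjusted p = 5.90e-08) and 3.41-fold in the induced monomer line (1.77 ± 0.16). In the uninduced monomer line it was already 2.38-fold higher (1.25 ± 0.17, adjusted p = 2.76e-05). Set against that uninduced line, a comparison added after the data were seen, Dll1 was higher only in the homodimer line among the 4 dimer lines (0.76 ± 0.15, adjusted p = 0.000714). The TCF4 line (-0.37 ± 0.15, adjusted p = 0.0676) and the TCF12-labelled libraries (-0.18 ± 0.15, adjusted p = 0.361) then had values below the control. That control had no doxycycline and the dimer lines did. In every comparison with it, here and below, construct, line and doxycycline therefore cannot be told apart.

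Dll3, the inhibitory Delta ligand (chr7:28293553-28302238, minus strand), separated the 3 lines with a TCF partner from all other groups. It stood at 40.8, 36.2 and 36.9 CPM in the TCF3-labelled libraries. The TCF4 line gave 36.2, 40.4 and 39.1 CPM, and the TCF12-labelled libraries gave 56.6, 41.0 and 33.6 CPM. These 9 samples overlapped one another and lay above every sample of the other groups. Parental samples held 18.0, 17.3 and 17.0 CPM, homodimer samples 11.98, 14.1 and 14.6 CPM, and the uninduced and induced monomer lines 9.65 ± 1.01 and 11.0 ± 0.67 CPM. Dll3 was therefore higher than parental on one side and lower on the other. It rose 2.18-fold in the TCF3-labelled libraries (1.12 ± 0.14, adjusted p = 5.67e-06), 2.21-fold in the TCF4 line and 2.50-fold in the TCF12-labelled ones (1.32 ± 0.14, and 1.09 without sample 1). In the monomer line it was lower than parental both with doxycycline (-0.66 ± 0.16, adjusted p = 0.00419) and without it (-0.86 ± 0.16, adjusted p = 0.000627). Between the homodimer and the parental line the value was -0.36 ± 0.15, which passed only without sample 1 of the TCF12-labelled group (adjusted p = 0.173 with 21 samples and 0.0158 with 20). The sign of that homodimer difference depended on the control, since against the uninduced monomer line it was 0.50 ± 0.16 (adjusted p = 0.0308).

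Jag1, the Jagged ligand (chr2:137081456-137116644, minus strand), fell into a low and a high set of groups. Homodimer samples held 15.5, 15.4 and 14.7 CPM, uninduced monomer samples 15.1, 17.0 and 15.2 CPM, and induced ones 16.3, 15.6 and 17.7 CPM. Together these 9 samples span 14.7 to 17.7 CPM. The parental samples held 23.2, 24.1 and 23.5 CPM, the TCF3-labelled libraries 23.2, 21.4 and 25.2 CPM, and the TCF4 line 26.7, 28.1 and 31.8 CPM. TCF12-labelled libraries gave 17.6, 25.8 and 29.3 CPM, of which the first overlapped the induced monomer samples. Jag1 fell in the homodimer line (-0.63 ± 0.14, adjusted p = 0.00448), the induced monomer line (-0.51 ± 0.14) and the uninduced monomer line (-0.58 ± 0.14) against parental. The value of the TCF4 line against parental was 0.29 ± 0.13, and passed only without sample 1 of the TCF12-labelled group (adjusted p = 0.164 with 21 samples and 0.00649 with 20). Against the uninduced monomer line, where Jag1 was low as well, the homodimer line stood at -0.06 ± 0.14 (adjusted p = 0.841) and was not called.

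Among the receptors, Notch1 (chr2:26457903-26516663, minus strand) was the one that rose. The TCF3-labelled libraries held 41.9, 40.3 and 47.7 CPM against 18.4, 18.2 and 22.5 CPM in the parental line, a 2.19-fold difference (1.13 ± 0.28, adjusted p = 0.00445). Those 3 samples lay above all other samples. The homodimer line (29.4 ± 3.2 CPM) and the TCF4 line (31.4 ± 2.7 CPM) also lay above every parental sample, with log2 fold changes of 0.57 ± 0.28 and 0.67 ± 0.28 that missed the threshold with 21 samples (adjusted p = 0.278 and 0.137). Both passed when sample 1 of the TCF12-labelled group was left out (adjusted p = 8.10e-05 and 2.55e-06). That sample held 8.81 CPM of Notch1, below all other samples, while samples 2 and 3 of its group held 30.8 and 36.0 CPM. Against parental the TCF12-labelled group thus stood at 0.37 ± 0.28 with sample 1 (adjusted p = 0.336) and passed at 0.75 without it (adjusted p = 1.56e-06).

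Notch3 (chr17:32120820-32166852, minus strand) was highest in the parental line, at 94.4, 105.7 and 108.4 CPM, and no sample of a construct line reached that range. The induced monomer line had 71.6, 67.2 and 63.0 CPM (-0.61 ± 0.18, adjusted p = 0.0224). This call was lost without parental sample 2 or 3 or induced monomer sample 2 or 3, with a highest adjusted p of 0.0800. In the TCF12-labelled libraries Notch3 fell by 0.71 on the log2 scale with all samples and by 0.44 without sample 1 (adjusted p = 0.00766 and 6.50e-05), and it did not pass when only these 2 groups were fitted (adjusted p = 0.239) or when the uninduced monomer line was the control (-0.34 ± 0.18, adjusted p = 0.159). Homodimer samples held 79.4, 71.8 and 64.2 CPM, and the 2 remaining dimer groups had means of 79.4 and 81.4 CPM. None of the 3 passed with 21 samples, and each passed with 20, at log2 fold changes of -0.52, -0.38 and -0.34. Notch2 (chr3:98013527-98150361, plus strand) varied least, from 38.2 ± 1.5 CPM in the induced monomer line to 58.2 ± 6.9 CPM in the parental line (-0.61 ± 0.21, adjusted p = 0.0477). That Notch2 call was lost on leaving out any 1 sample other than samples 1 and 3 of the TCF12-labelled group (highest adjusted p 0.166).

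Hes1, the broadly used target repressor (chr16:30064384-30067796, plus strand), was higher in the 3 lines with a TCF partner. The parental line held 28.1, 21.9 and 23.3 CPM, the TCF3-labelled libraries 43.9, 34.4 and 36.0 CPM, and the TCF4 line 36.5, 42.6 and 40.1 CPM. TCF12-labelled libraries gave 80.1, 43.9 and 35.8 CPM, with sample 1 above all other samples. None of these 9 samples overlapped the homodimer line (27.3, 27.3 and 31.4 CPM), nor either monomer group (21.6 ± 1.6 and 26.6 ± 1.9 CPM). The rise against parental was 0.64 ± 0.21 in the TCF3-labelled libraries (adjusted p = 0.0248) and 0.70 ± 0.20 in the TCF4 line (adjusted p = 0.0282). In the TCF12-labelled libraries it was 1.12 ± 0.20, or 0.70 without sample 1 (adjusted p = 7.61e-06), and it did not pass when only these 2 groups were fitted (adjusted p = 0.0996). The first of these calls was lost without parental sample 2 or 3 or TCF3-labelled sample 1, and the second without parental sample 2 or 3 or TCF4 sample 2 or 3 (highest adjusted p 0.106 and 0.124).

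Hey2, a target repressor known from heart and vessels (chr10:30832359-30842801, minus strand), was scarce, with 2 to 56 counts in a library, and had the largest fold differences among the members. The parental line held 0.872, 0.542 and 0.202 CPM and the homodimer line 0.648, 0.808 and 0.412 CPM. TCF3-labelled libraries held 2.98, 3.53 and 4.55 CPM, the TCF12-labelled ones 3.88, 2.87 and 2.42 CPM, and the TCF4 line 1.65, 2.14 and 1.34 CPM. All 9 samples lay above every sample of the other 4 groups, and the TCF4 line lay below the other samples with a TCF partner. Hey2 rose 6.82-fold in the TCF3-labelled libraries (2.77 ± 0.34, adjusted p = 5.24e-06), 5.59-fold in the TCF12-labelled ones (2.48 ± 0.36) and 3.12-fold in the TCF4 line (1.64 ± 0.38, adjusted p = 0.00655). The last call was lost without parental sample 3 (adjusted p = 0.0533). Against the uninduced monomer line the rises were 1.72 ± 0.30 and 1.43 ± 0.31 in the TCF3-labelled and TCF12-labelled libraries, and the TCF4 line did not pass (0.59 ± 0.34, adjusted p = 0.200).

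Hey1, its relative (chr3:8663359-8667256, minus strand), followed another order and was low only in the monomer line. The uninduced samples held 3.25, 4.70 and 4.30 CPM and the induced ones 3.76, 2.36 and 3.33 CPM, and these overlapped. Parental samples held 8.50, 8.67 and 6.86 CPM, and the 4 dimer groups had means of 6.62 to 7.40 CPM. Every parental and dimer sample lay above every monomer sample. Hey1 was 2.53-fold lower than parental in the induced monomer line (-1.34 ± 0.18, adjusted p = 1.46e-05) and 1.92-fold lower in the uninduced one (-0.94 ± 0.17, adjusted p = 0.000500). Hes5 (chr4:154960923-154962371, plus strand), a target repressor of neural progenitors, had 0 to 4 counts in a library and was at 0 in 10 samples, all 3 of the induced monomer line among them. The homodimer samples had 3, 3 and 4 counts and no other sample more than 3. Hes5 did not pass the filter on low counts and was not tested in the main fit, so no difference between groups is stated.

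Counts of members called were read against the share of all tested genes called in the same comparison. The 6 comparisons with the parental line share its 3 samples. Of 9 members, 4 passed without induction of the monomer (Dll1 higher, Dll3, Jag1 and Hey1 lower), beside 19.9% of genes. After induction 6 passed (Dll1 higher, Notch2, Notch3, Dll3, Jag1 and Hey1 lower), beside 20.0%. When sample 1 of the TCF12-labelled group was left out, 6 passed in both, beside 36.8% and 35.2%. The uninduced line had no doxycycline and the parental line did, so the integrated line and the absence of doxycycline cannot be told apart there. For the homodimer 2 passed (Dll1 and Jag1), beside 8.84%, and 5 without that sample, beside 20.4%. The TCF3-labelled libraries had 5 members called, all higher (Notch1, Dll1, Dll3, Hes1 and Hey2), beside 28.3%, and 6 without that sample, beside 46.5%. The TCF4 line had 4 called, all higher (Dll1, Dll3, Hes1 and Hey2), beside 12.9%, and 7 without that sample, beside 28.1%. The TCF12-labelled libraries had 5 called (Dll1, Dll3, Hes1 and Hey2 higher, Notch3 lower), beside 27.0%, and 6 without their sample 1, beside 30.3%. The median log2 fold change over the 9 members was -0.51 for the induced monomer, -0.20 for the homodimer and 0.64, 0.67 and 0.37 in the lines with TCF3, TCF4 and TCF12 on their labels, against medians over all genes of 0.00056 to 0.024. For the uninduced monomer line the members' median was -0.37, and without sample 1 of the TCF12-labelled group that group's median was 0.70.

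**Figure D2:**
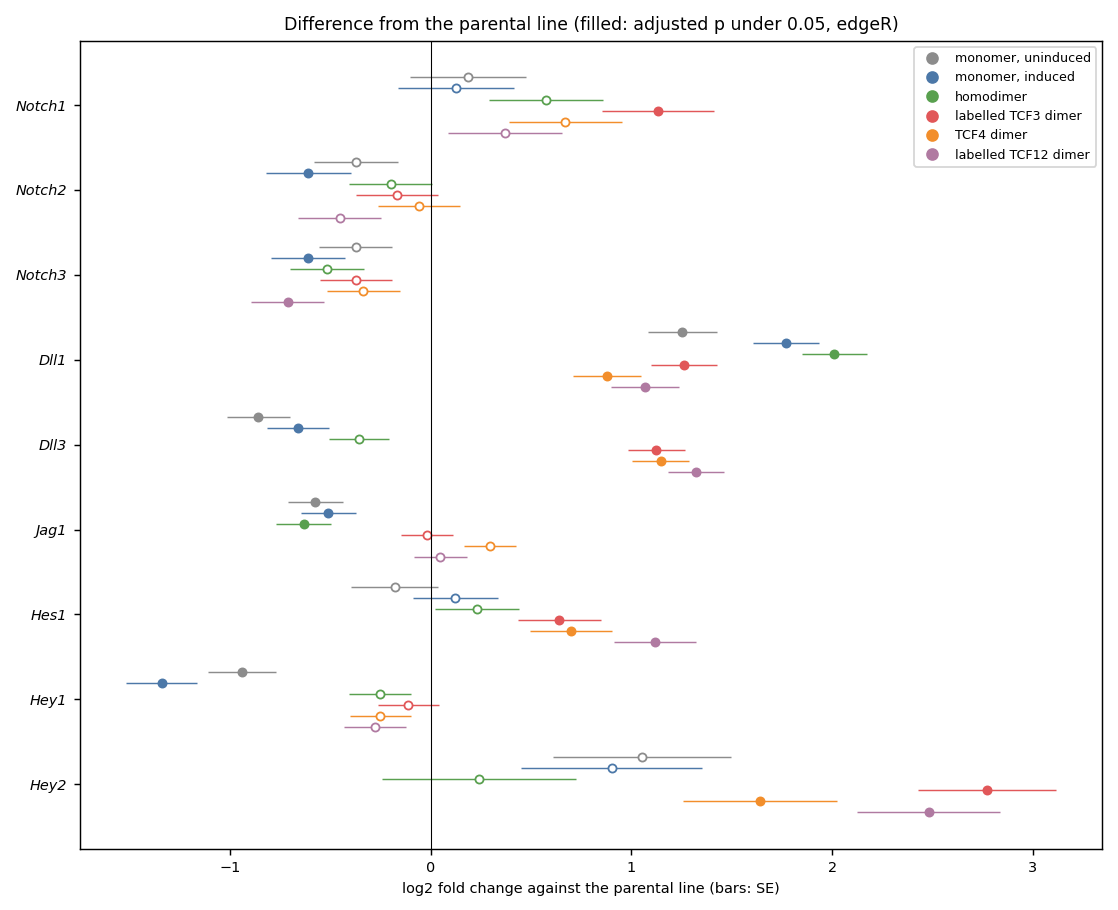
Log2 fold change of the 9 tested genes against the parental line (points; bars are SE; filled points have an adjusted p under 0.05 in edgeR), for 6 groups that share the same 3 parental samples. Dll1 lies right of 0 in all 6 groups, and Dll3, Hes1 and Hey2 lie farthest right in the 3 groups with a TCF partner.

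Within the monomer line, where Twist1 stood at 613 CPM with doxycycline and 5.07 CPM without it, no member was called. By edgeR 0 of 9 members passed between induced and uninduced samples, beside 2.0% of all genes. That count lies near the share of all genes and alone is not a result about the members. An unadjusted p under 0.05 was seen for 1, and DESeq2 called 0. Fitting only the groups compared called more members, as given in the last section. Samples did not overlap for Hes1, which was higher, or for Notch2 and Notch3, which were lower, but none of these was called. The member nearest the threshold was Dll1, whose 3 induced samples all lay above the uninduced ones (0.52 ± 0.15, adjusted p = 0.0945), and it passed without sample 1 of the TCF12-labelled group (adjusted p = 0.0223, beside 6.17% of genes).

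Compared with the induced monomer line, whose 3 samples these 4 comparisons share, the homodimer line differed in 1 member, Hey1, which was 2.13-fold higher (1.09 ± 0.18, adjusted p = 0.000194), beside 18.5% of genes. With 20 samples 4 passed, beside 33.3%: Notch1 (0.46), Notch2 (0.42), Dll3 (0.32) and Hey1 (1.10) were higher. In the TCF3-labelled libraries 6 passed, beside 22.1%: Dll3 (3.45-fold), Hey2 (3.65-fold), Hey1, Notch1 and Jag1 were higher, and Dll1 was lower (-0.51 ± 0.14). The Jag1 call was lost without induced monomer sample 2 or TCF3-labelled sample 3, and the Dll1 call without induced monomer sample 1 or TCF3-labelled sample 3. In the TCF4 line 5 passed, beside 27.4%: Dll3 (3.50-fold), Hey1, Jag1 and Hes1 were higher, and Dll1 was lower (-0.89 ± 0.15, adjusted p = 0.000117). The Hes1 call (0.58 ± 0.20, adjusted p = 0.0407) was lost without any 1 of the induced monomer or TCF4 samples or TCF3-labelled sample 3. In the TCF12-labelled libraries 6 passed, beside 33.5%: Dll3 (3.96-fold), Hey2, Hey1, Hes1 and Jag1 were higher, and Dll1 was lower (-0.70 ± 0.15). When only these 2 groups were fitted, the Hes1 (adjusted p = 0.0844) and Jag1 (adjusted p = 0.156) calls were lost. Without sample 1 of the TCF12-labelled group 9, 8 and 8 members passed in these last 3 comparisons, beside 40.9%, 45.5% and 42.4%. The TCF12-labelled values were then 1.77 for Dll3 and 0.59 for Hes1 on the log2 scale, against 1.98 and 0.99 with it.

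Against the uninduced monomer line, the control added after the data were seen, 3 members passed for the homodimer (Dll1, Dll3 and Hey1), beside 22.8% of genes, and all were higher. For the TCF3-labelled libraries 6 passed (Notch1, Dll3, Jag1, Hes1, Hey1 and Hey2), beside 28.9%. The TCF4 line gave 4 (Dll3, Jag1, Hes1 and Hey1), beside 32.3%, and the TCF12-labelled libraries 5 (Dll3, Jag1, Hes1, Hey1 and Hey2), beside 37.0%. Dll3 had the largest of these rises in each of the 3 groups with a TCF partner, at 1.98 ± 0.15, 2.00 ± 0.15 and 2.18 ± 0.15. Dll1, which was higher than parental in all 3, was not called against this control in any of them. The control had no doxycycline and the dimer groups did, so construct, line and doxycycline cannot be told apart in these comparisons. Against parental it was itself called lower in Dll3, Jag1 and Hey1 and higher in Dll1.

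The 3 lines with a TCF partner, averaged, were then set directly against the homodimer line. Of 9 members 5 passed, beside 14.0% of genes. Dll3 was 2.94-fold higher (1.56 ± 0.13, adjusted p = 6.83e-08), Hey2 4.16-fold higher (2.06 ± 0.30), Jag1 1.67-fold higher (0.74 ± 0.11) and Hes1 1.50-fold higher (0.59 ± 0.17, adjusted p = 0.0247). Dll1 went the other way and was 1.92-fold lower (-0.94 ± 0.11, adjusted p = 8.14e-06). For all 5 of these genes no sample of the 9 overlapped the homodimer samples. The Hes1 call was lost on leaving out any 1 of the homodimer samples (adjusted p up to 0.124) and when only these 4 groups were fitted (adjusted p = 0.107). Without sample 1 of the TCF12-labelled group the values were 1.47 for Dll3, 1.98 for Hey2, 0.80 for Jag1, 0.45 for Hes1 and -0.94 for Dll1, and Notch1 was added at 0.28, making 6 of 9 beside 28.9%.

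**Figure D3:**
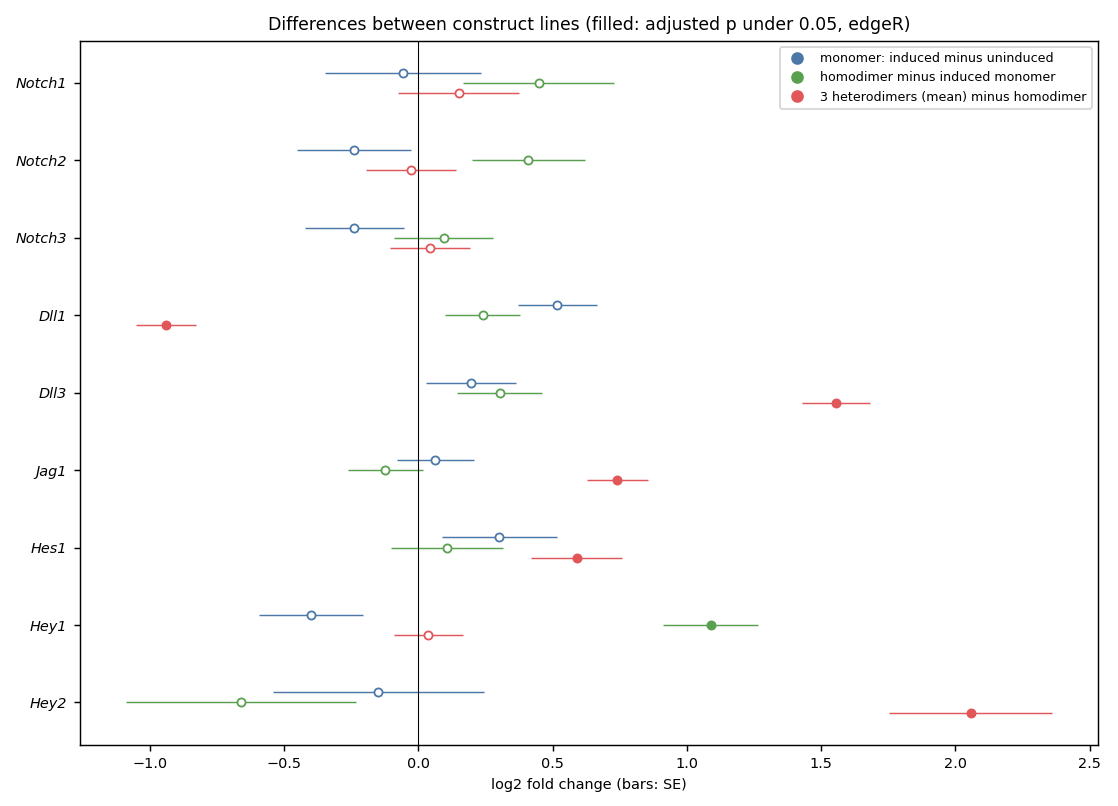
Log2 fold change of the 9 tested genes (points; bars are SE; filled points have an adjusted p under 0.05 in edgeR) for induced minus uninduced monomer, homodimer minus induced monomer, and the mean of the 3 groups labelled with a TCF partner minus homodimer. Dll3, Jag1, Hes1 and Hey2 lie right of 0 and Dll1 left of 0 in the last comparison, Hey1 passed only in the second, and no point is filled in the first.

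Between the lines with a TCF partner, the counts of members called with 21 samples lay near or below the shares of all genes. These counts alone are not a result about the members. Hey2 was 2.19-fold higher in the TCF3-labelled libraries than in the TCF4 line (1.13 ± 0.26, adjusted p = 0.00395), the only member of 9 to pass, beside 19.7% of genes. Without sample 1 of the TCF12-labelled group 4 passed, beside 40.4%: Notch1 (0.45), Dll1 (0.36) and Hey2 (1.13) were higher and Jag1 (-0.32) was lower. Between the TCF12-labelled libraries and the TCF4 line edgeR called 0 members, beside 3.24% of genes; 2 had an unadjusted p under 0.05, and DESeq2 called 0. Without sample 1 of the TCF12-labelled group the count was also 0, beside 4.76%. Leaving out sample 3 of the TCF12-labelled group raised that count to 6. Between the TCF3-labelled and TCF12-labelled libraries edgeR called 0, beside 18.8%; 2 had an unadjusted p under 0.05, DESeq2 called 1, and the count was 2 without sample 1 of the TCF12-labelled group (beside 25.0%) and 5 without sample 3.

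Sample 1 of the TCF12-labelled group bears on these values in step with transcript length. Its CPM divided by the mean of samples 2 and 3 was 0.264 for Notch1, 0.411 for Notch2 and 0.460 for Notch3, whose longest transcripts run from 8016 to 10500 bases. The ratio was 0.639 for Jag1 (5612 bases), 1.02 for Dll1 (3581 bases) and 1.25 to 1.52 for Hey1, Hey2 and Dll3 (2423 to 2618 bases). For Hes1, at 1468 bases the shortest of the 9, it was 2.01. Receptor values in that group are therefore lowest, and Hes1 highest, in the same library.

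**Figure D4:**
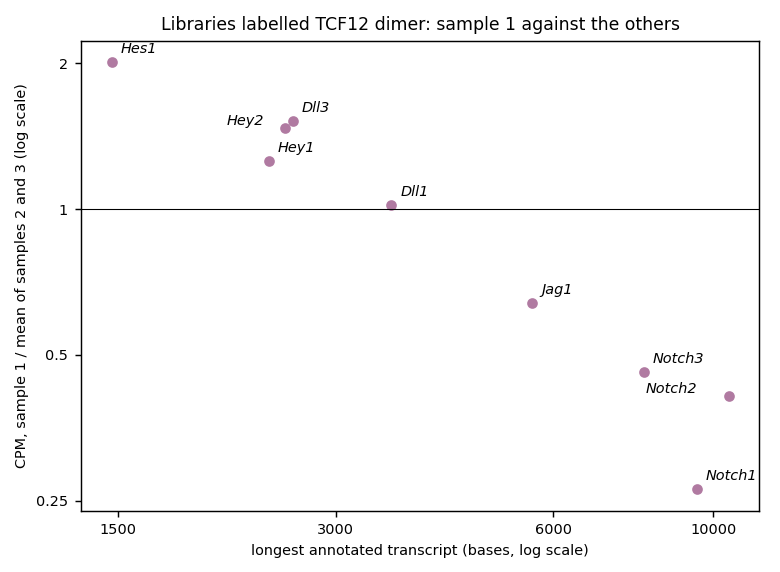
CPM of sample 1 of the TCF12-labelled group divided by the mean of samples 2 and 3 (vertical axis, log scale) against the longest annotated transcript (horizontal axis, log scale) for the 9 tested genes. Hes1 is at 2.01 and Notch1 at 0.264; the longest genes lie lowest.

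Per 1000 bases of the longest transcript, levels can be set side by side between genes. In the parental line Hes1 was highest at 16.7 CPM per 1000 bases, followed by Notch3 at 12.8, Dll3 at 6.66, Notch2 at 5.55, Jag1 at 4.21, Hey1 at 3.31, Notch1 at 2.08, Dll1 at 1.04 and Hey2 at 0.211. Notch3 was the most abundant receptor in each of the 7 groups on this scale. Dll3 was the most abundant of the 3 member ligands in all groups. Dll1 ranged from the least abundant of these 3 in the parental line to above Jag1 (4.23 against 2.71) in the homodimer line. Jag2, a ligand outside the members, stood above Dll3 in the parental (8.64), uninduced monomer (7.69), induced monomer (6.33) and homodimer (7.95) groups. In the groups with a TCF partner Jag2 stood below Dll3, at 5.66 (TCF3-labelled), 7.18 (TCF4) and 4.64 (TCF12-labelled).

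**Figure D5:**
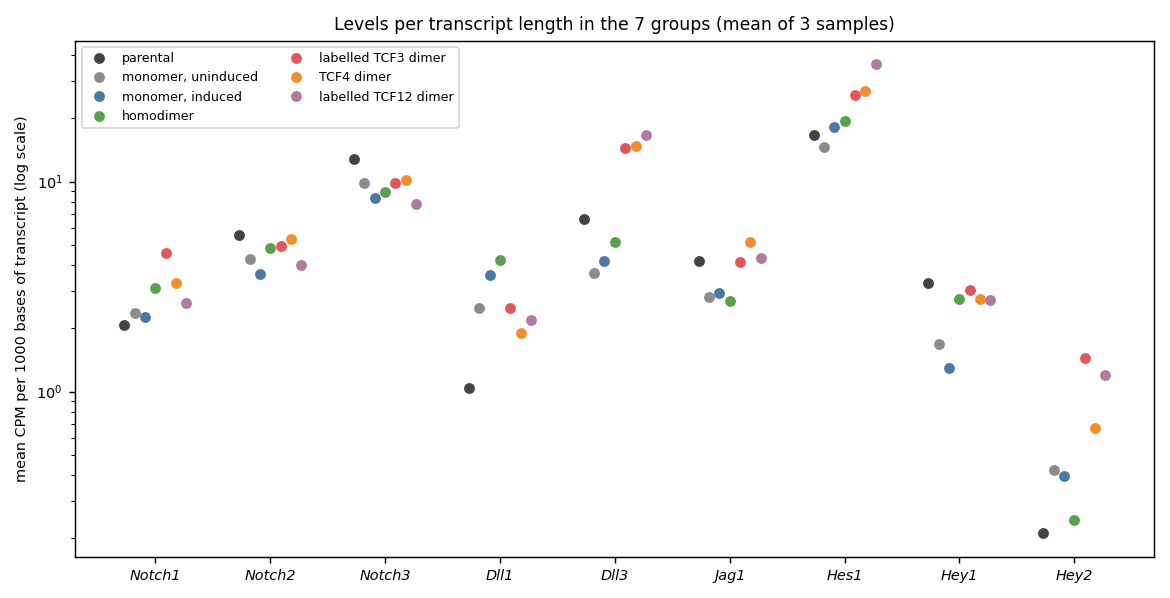
Mean CPM per 1000 bases of the longest annotated transcript (log scale) for the 9 tested genes in the 7 groups (points, n = 3 samples each). Hes1 and Notch3 hold the highest levels in the parental line and Hey2 the lowest; Dll3 and Hey2 show the 3 groups with a TCF partner as a separate upper set.

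Beyond the 10 members, 45 other genes of the pathway (further ligands and receptors, fringes, processing enzymes, transcriptional partners, regulators and Hes/Hey relatives) were followed, of which 42 were tested. Against the parental line, 6 of them passed in the uninduced monomer line (4 higher, 2 lower; 19.9% of all genes), 11 in the induced line (7 and 4; 20.0%) and 4 in the homodimer line (4 and 0; 8.84%). There were 15 in the TCF3-labelled libraries (11 and 4; 28.3%), 6 in the TCF4 line (5 and 1; 12.9%) and 15 in the TCF12-labelled libraries (7 and 8; 27.0%). With 21 samples these counts, as shares of 42, lie near or only somewhat above or below the shares of all genes, so they are not a result about the pathway. Without sample 1 of the TCF12-labelled group the counts were 16 (7 higher, 9 lower; 36.8% of all genes), 23 (9 and 14; 35.2%) and 12 (6 and 6; 20.4%) for the uninduced monomer, the induced monomer and the homodimer. They were 22 (13 and 9, beside 46.5%), 15 (10 and 5, beside 28.1%) and 17 (10 and 7, beside 30.3%) for the groups with TCF3, TCF4 and TCF12 on their labels. As a share of 42, the induced monomer count then lay farthest above the share of all genes. More of its genes were lower than higher, the reverse of the 21-sample counts. Whether such a count exceeds the share of all genes was not tested. Lfng, a glycosyltransferase that changes which ligands a receptor answers to, was one of the 2 genes that rose with doxycycline in the monomer line, from 2.93, 3.76 and 3.81 to 8.53, 8.33 and 6.45 CPM (1.12 ± 0.18, adjusted p = 0.00101). The other was Numbl, a relative of the Notch inhibitor Numb (0.73 ± 0.11, adjusted p = 0.000525). Lfng was highest in the homodimer line, at 18.5, 18.9 and 15.9 CPM against 4.58, 3.90 and 4.84 CPM in the parental line (1.99 ± 0.16, adjusted p = 5.11e-08). It was higher than parental in every induced construct group: the rise was 0.80 ± 0.17 in the induced monomer line, 1.08 ± 0.16 in the TCF3-labelled libraries, 1.20 ± 0.16 in the TCF4 line and 1.46 ± 0.16 in the TCF12-labelled libraries. Numbl was likewise called higher than parental in these 5 groups, by 0.68 to 1.27 on the log2 scale.

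Further Hes and Hey relatives changed as well. Heyl, at 0.109, 0.108 and 0.202 CPM in parental samples, rose to 2.48, 1.59 and 2.03 CPM in the TCF3-labelled libraries (3.74 ± 0.61, adjusted p = 0.000117), and to 1.68, 1.15 and 0.646 CPM in the TCF12-labelled ones (2.89 ± 0.69). In the induced monomer line it was also higher, at 0.341, 1.13 and 1.07 CPM (2.50 ± 0.76, adjusted p = 0.0239). Hes6, which is known to counter Hes1, rose from 42.5 ± 1.7 to 102.4 ± 10.2 CPM in the TCF3-labelled libraries (1.27 ± 0.29, adjusted p = 0.00252). In the TCF12-labelled libraries it stood at 249.8, 90.3 and 71.2 CPM (1.68 ± 0.29, and 0.92 without sample 1). Every homodimer and TCF4 sample also lay above the parental samples in Hes6, with means of 71.5 and 70.9 CPM. Hes3 was at 0 in the 3 parental samples and at 1.51, 2.06 and 2.16 CPM in the homodimer line (adjusted p = 0.000141), and it also passed in the induced (mean 0.593 CPM, adjusted p = 0.00618) and uninduced monomer lines (mean 0.339 CPM, adjusted p = 0.0306). Nrarp, a feedback inhibitor that Notch itself switches on, went the other way: it was at 1.42, 0.976 and 2.02 CPM in the parental line and fell in the induced monomer line (-1.60 ± 0.34, adjusted p = 0.00187), the TCF3-labelled libraries (-1.38 ± 0.31), the TCF4 line (-1.21 ± 0.29) and the TCF12-labelled ones (-1.55 ± 0.32). Nrarp and the Hes and Hey genes that rose in the lines with a TCF partner thus had opposite signs against the same parental samples. Nrarp was scarce there, with means of 0.563 (TCF3-labelled), 0.629 (TCF4) and 0.493 CPM (TCF12-labelled). Hey1 was not called against parental in any of these groups. The coactivator genes Maml2 and Maml1 were lower than parental in the uninduced monomer line (-1.55 ± 0.40 and -0.51 ± 0.15), where Furin (0.52 ± 0.10) and Rbpj (0.39 ± 0.11, adjusted p = 0.0125) were higher. In the induced monomer line Maml2 was lower too (-1.12 ± 0.37), and Rbpj (0.62 ± 0.11, adjusted p = 0.000251) and Furin (0.35 ± 0.10, adjusted p = 0.0197) were again higher. Mfng fell in the TCF3-labelled (-1.07 ± 0.21) and TCF12-labelled libraries (-0.85 ± 0.21), and Dtx3l fell in the TCF12-labelled libraries (-1.02 ± 0.32, and -0.60 without sample 1). Neurl1b rose in all 4 dimer groups, by 1.45 ± 0.34 in the homodimer line, 1.23 ± 0.34 in the TCF3-labelled libraries, 1.18 ± 0.34 in the TCF4 line and 1.54 ± 0.33 in the TCF12-labelled libraries.

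Marker genes of other cell types differed between the groups too. The summed level of 7 endothelial markers, all detected in every group, was 18.0 to 20.9 CPM in the parental samples, 23.6 to 24.9 in the uninduced and 24.2 to 29.3 in the induced monomer samples, 19.4 to 24.0 in the homodimer line, 51.4 to 58.5 in the TCF3-labelled libraries, 25.5 to 27.5 in the TCF4 line and 32.2 to 35.8 in the TCF12-labelled ones. Its members differed among themselves: mean Kdr (2.17 CPM in parental samples) stood at 15.4, 5.85 and 9.85 CPM in the TCF3-labelled, TCF4 and TCF12-labelled groups, while Pecam1 (8.45 CPM) stood at 11.4, 6.17 and 3.99 CPM. Cdh5 was highest in the induced monomer line (7.54 CPM), where Hey2 was low. The sum of 5 cardiac and lateral mesoderm markers was 1.34 to 4.39 CPM in the groups without a TCF partner and 4.53 to 23.3 CPM in those with one; Hand2 was at 0 in the uninduced and Tbx5 in the induced monomer samples. Only Hand1 (0.357 CPM in parental samples, 2.65 to 10.6 CPM with a TCF partner) and Hand2 (0.0698 against 1.10 to 2.48 CPM) were higher in all 3 of these groups than in the 4 without one, and Tbx20 (2.42 against 1.34 to 2.20 CPM) was not. Primitive streak markers, 6 genes, summed to 188 to 228 CPM in the parental line and to 15.5 to 39.3 CPM in all construct groups. Eomes was the largest part (133 CPM in parental samples and 12.3 to 28.1 CPM elsewhere). These sums were below parental in every construct group, as Notch3 was, whereas Dll1 was above parental in every one. Primitive endoderm markers, 6 genes, were highest in the monomer line, where Hey1 was low, at 516 to 596 CPM uninduced and 474 to 516 CPM induced. They stood at 164 to 181 CPM (parental), 102 to 119 CPM (homodimer), 286 to 339 CPM (TCF3-labelled), 77.9 to 86.9 CPM (TCF4) and 88.0 to 106 CPM (TCF12-labelled). Among the dimer groups mean Hey1 was 6.62 to 7.40 CPM, with the highest value in the TCF3-labelled libraries, where these markers were highest too. Hey1 was not called in any comparison made between dimer groups (edgeR, adjusted p from 0.449 to 0.911). Of the 6 presomitic mesoderm markers, the tissue in which Dll1 and Dll3 are best known, Msgn1 was at 0 in all 21 samples and the sum stayed at 0.813 to 3.73 CPM. Of the 6 neural progenitor markers, Nes made up nearly all of the sum, with a mean of 136 CPM in parental samples and 62.6 to 117 CPM elsewhere. Pax6 ran otherwise, at 2.96 CPM in the parental and 7.73 CPM in the homodimer line, and the other 4 genes were below 1 CPM, with Neurog2 at 0 in the parental, induced monomer, homodimer and TCF4 groups. The 6 pluripotency markers summed to 771 to 1244 CPM, most of it Pou5f1, and differed among themselves. Parental samples had a mean of 210 CPM of Nanog, and the other groups had means of 56.4 to 91.3 CPM, whereas mean Zfp42 was 84.7 CPM (parental), 228 CPM (uninduced monomer) and 62.3 CPM (TCF4). The part these cell types play in the Notch values was not tested.

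The genes whose levels followed each member most closely across the 21 samples were found by Pearson's correlation of log2(CPM + 0.5) among 10610 genes whose mean level reached 5 CPM. These are descriptions over samples that share groups and libraries. Dll3 was followed by Cdh11 (r = 0.969) and Cplx2 (0.956), Hes1 by Enho (0.964) and Ccdc34 (0.954), and Jag1 by Rps6ka2 (0.947) and Nrcam (0.937). Hey2 was followed by Csrp1 (0.919) and Ngfr (0.918), Dll1 by Ephb3 (0.917) and Tnfsf11 (0.904), and Hey1 by Dlg4 (0.896) and Sp8 (0.875). Among the receptors, Notch1 was followed by Cep170 (0.938) and Pkd1 (0.936), Notch2 by Fat1 (0.939) and Stim1 (0.937), and Notch3 by Sipa1l1 (0.921) and Gja1 (0.911). Without sample 1 of the TCF12-labelled group these fell to 0.895 and 0.881, 0.857 and 0.853, and 0.776 and 0.824. The value for Dll3 and Cdh11 was 0.983 without that sample.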

How the data were processed

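RNA was sequenced from 21 embryoid body samples, 3 in each of 7 groups. The authors deposited 1 table of raw gene counts per sample. The submitters' processing notes name FastQC, TopHat2 and HTSeq with mm10/GRCm38; versions, and whether counting used strand, are not given in the sources used here. Genes overlapping a member had at most 4 counts in any sample. As deposited, 18 of the tables hold dates in place of 25 symbols, so rows were joined by position, and no member was among them. The 3 tables without such dates are those of the TCF12-labelled group. This difference in file handling and that group cannot be told apart.

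From the counts, edgeR 4.0.16 (R 4.3.3) was run on all 21 samples with 1 mean per group, TMM scaling, filterByExpr (minimum count 10, total 15), the quasi-likelihood test and Benjamini-Hochberg adjustment over 14311 genes at 0.05. CPM were scaled by TMM, and SE is the log2 fold change divided by the root of F. The fit was tested on simulated data. DESeq2 1.42.0, other scalings and filters, fits of only the groups compared, a replicate block and leaving out each sample were alternatives.

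Members and lists were chosen with earlier results of these data known. Text names all members, Twist1 and its partners as construct checks, and, per comparison with parental and for induction, up to 2 other pathway genes in each direction that passed without overlapping samples at 1 CPM or more. Coordinates are from GENCODE M21 and promoter windows from RefSeq. Single pathway and marker genes outside that rule were named after their values were seen.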

Additional observations from a re-analysis of the deposited data

How the results depend on the processing

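Of 78 single-gene results, 50 passed the threshold with 21 samples. Fitting only the groups compared called 3 members in the TCF12-labelled libraries (5 with all groups) and 7 in the TCF4 line (4) against parental, 5 in the homodimer line against parental (2), 4 in the homodimer line (1) and 8 in the TCF4 line (5) against the induced monomer line, 2 for induction (0) and 3 between TCF3-labelled and TCF4 (1). Between TCF3- and TCF12-labelled libraries (0), DESeq2 and the replicate block each called 1 and no filter called 2; no filter also called 2 for homodimer against induced monomer (1). Leaving out 1 sample gave 4 to 6 members for the induced monomer, 2 to 5 for the homodimer, 4 to 6 for TCF3-labelled, 2 to 7 for TCF4 (2 without parental sample 3), 5 to 6 for TCF12-labelled and 4 to 6 for the uninduced line against parental; 0 to 1 for induction; 1 to 4, 4 to 9, 4 to 8 and 6 to 8 for the homodimer, TCF3-labelled, TCF4 and TCF12-labelled lines against induced monomer; 4 to 6 for the TCF lines against homodimer; 1 to 4, 0 to 6 and 0 to 5 among the TCF lines; and 6 to 9 for any difference.

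With the uninduced monomer line as control, an alternative chosen after seeing the data, the sign turned for Dll3 in the homodimer line (0.50), Dll1 in the TCF4 line (-0.37) and TCF12-labelled libraries (-0.18), and Notch3 in the TCF3-labelled (0.0018) and TCF4 lines (0.038). Jag1 between TCF3- and TCF12-labelled libraries (-0.07) turned to 0.0026 with library size only and ranged from -0.25 to 0.11 over samples left out, 0.0068 without TCF12-labelled sample 2 and 0.11 without sample 3. TCF12-labelled against induced monomer, Notch1 (from -0.096 to 0.64) and Notch2 (from -0.15 to 0.47) turned without TCF12-labelled sample 3. Calls lost when only the groups compared were fitted were Hes1 (adjusted p = 0.0996) and Notch3 (0.239) in TCF12-labelled libraries against parental, Hes1 (0.0844) and Jag1 (0.156) against induced monomer, and Hes1 in the TCF lines against the homodimer (0.107); with library size only, Notch2 in the induced monomer against parental was lost (0.0679). The cause was not tested. Same-numbered samples did not deviate together (mean r 0.0214 over 63 pairs, from -0.221 to 0.344), so the numbers were not taken as pairs; the replicate block changed the side of 1 single-gene result. Depth limits Hes5, with 0 to 4 counts, and Hey2, with 2 to 56.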
